A study of Homo sapiens with 6 samples.

Results

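The genes described here are 10 feedback and output genes of the ERK pathway: DUSP4, DUSP5, DUSP6, SPRY2, SPRY4, SPRED1, SPRED2, ETV4, ETV5 and PHLDA1. They were chosen by name, with earlier results of these data known, and their Ensembl IDs were looked up in the deposited expression table. All 10 were found among its 57905 gene IDs, and all 10 were among the 13568 genes with enough signal to be tested (1 FPKM or more in 3 or more of the 6 libraries). FPKM is the number of fragments per kilobase of exon, scaled to the size of the library, so levels can be compared between genes. The RNA came from Huh7, an established human hepatoma cell line grown in medium with serum. Cells of 1 group received a scrambled siRNA (siControl, 3 libraries). Cells of the other group received an siRNA against ASGR1 (siASGR1, 3 libraries), the major subunit of the hepatic asialoglycoprotein receptor. RNA was taken 72 h after transfection in both. Both groups were transfected and no untransfected cells were included, 1 cell line was used, and the labels do not say whether the 3 libraries of a group were separate cultures. The p-values therefore speak to the variation among these 6 libraries alone, part of which may be technical.

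ERK is the last kinase of the RAS-RAF-MEK-ERK cascade, which carries signals from growth factor receptors such as EGFR, MET and the FGF receptors to the nucleus. Active ERK switches on genes whose products turn the cascade down again: dual-specificity phosphatases (DUSP) remove the activating phosphates from ERK, and Sprouty (SPRY) and SPRED proteins act on RAS and RAF above it. The mRNAs of these genes, of the ETS transcription factors ETV4 and ETV5 and of PHLDA1 depend on ERK activity in many cell types and are widely used as a transcriptional readout of the pathway. ERK activity itself, which is a matter of phosphorylation, was not measured here.

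The libraries held 16252000 to 19311000 fragments, as read from the steps between low FPKM values. The siRNA target had 2 sets of deposited values. In siControl ASGR1 was at 17.54, 17.56 and 16.90 FPKM. In siASGR1 it was at 4.6, 4.82 and 4.71 FPKM in the table of the whole series, which is 27.2% of siControl, and at 14.65, 15.81 and 14.04 FPKM in the libraries' own files, which is 85.6%. No other gene differed between these sources, so the values of the 10 genes do not depend on the choice, whereas the size of the knockdown does. Of 10 hepatocyte markers, all 10 were detected in both groups and all 10 rose in siASGR1, against 20.9% of all tested genes by the test given below. Their summed level was 3991 to 4104 FPKM in siControl and 7631 to 7929 FPKM in siASGR1. Fibroblast and stellate cell markers had a summed level of 10.2 to 11.1 FPKM in siControl and 11.0 to 12.3 FPKM in siASGR1. Among them 6 of 8 were lower without overlap, COL1A1 from 2.05 to 2.77 FPKM down to 0.02 to 0.03 FPKM, and PDGFRA was higher. Of all tested genes 43.8% were lower and 23.5% higher without overlap, but only 3 of these 8 markers had enough signal to be tested. The 6 leukocyte markers summed to 70.8 to 77.1 FPKM in siControl and 116.1 to 119.7 FPKM in siASGR1, nearly all of it LYZ, with 1 higher and 1 lower without overlap, while the pan-leukocyte marker PTPRC was at most 0.01 FPKM. The 4 endothelial markers found summed to at most 0.21 FPKM, with KDR and TEK listed at 0 throughout, and PECAM1 was not analysed here. The part of these marker differences in the results was not tested. In bulk RNA, fewer cells of a kind and less RNA per cell cannot be told apart.

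With the values as deposited, most of the feedback genes were lower after siASGR1, to very different degrees. DUSP6 was higher, and SPRED1 and ETV4 were not called. By limma on log2(FPKM + 1), with Benjamini-Hochberg adjustment over all 13568 tested genes, 7 of the 10 fell, 1 rose and 2 were not called. Among all tested genes 40.4% fell and 20.9% rose, so a fall was common in these libraries. The median log2 fold change was -0.27 for the 10 genes and -0.13 for all tested genes. The median of all genes depends on how libraries are scaled to each other: with median-of-ratios factors, which centre it near 0 (-0.01), 5 of the 10 fell and 1 rose, against 28.9% and 29.9% of all tested genes. The groups did not overlap for 8 of the 10 genes, 7 lower and 1 higher, against 43.8% and 23.5% of tested genes (67.3% in either direction). Summed over the 10 genes, the level was 174.3 ± 4.42 FPKM in siControl and 140.0 ± 2.33 FPKM in siASGR1 (SD, n = 3), or 80.3% of siControl.

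**Figure D1:**
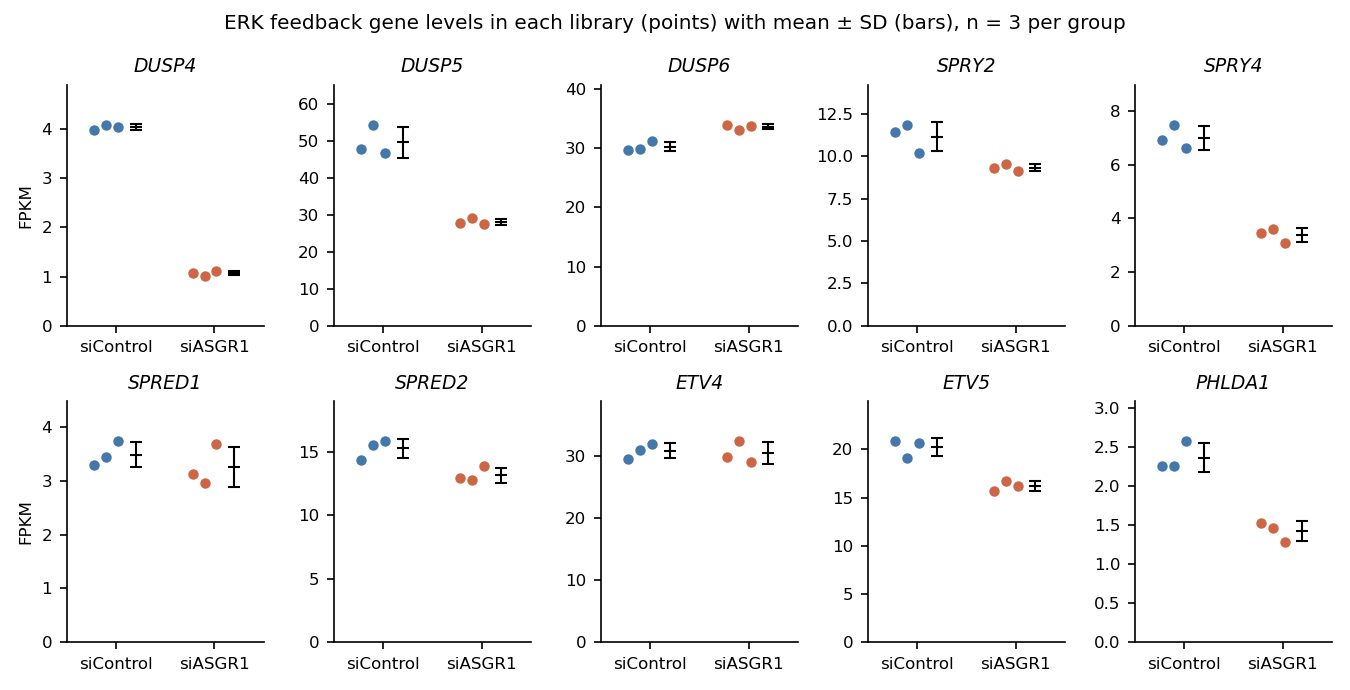
FPKM of each of the 10 ERK feedback genes (vertical axes, each starting at 0) in the 3 siControl and 3 siASGR1 libraries (points), with the mean and SD beside them. The groups are apart for all genes except SPRED1 and ETV4, and DUSP6 is the one gene whose siASGR1 points lie above the siControl points.

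The DUSP genes encode the phosphatases that act directly on MAP kinases. DUSP4 is a nuclear phosphatase of ERK and related kinases, DUSP5 a nuclear phosphatase specific for ERK, and DUSP6 its cytoplasmic counterpart. DUSP4 (ENSG00000120875) was at 3.97, 4.08 and 4.04 FPKM in siControl and at 1.08, 1.02 and 1.11 FPKM in siASGR1. All siASGR1 libraries lay far below all siControl libraries, and the spread within each group was small. The mean fell from 4.03 ± 0.056 to 1.07 ± 0.046 FPKM, 26.6% of siControl. On the log2 scale this was -1.28 (SE 0.07, adjusted p = 8.93e-06), and 1.6% of all tested genes had a lower log2 fold change. The scale understates a change at such a level: with 0.1 in place of 1 added before the logarithm, the log2 fold change of DUSP4 was -1.82.

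DUSP5 (ENSG00000138166; GRCh38 chromosome 10, 110497838 to 110511544, plus strand) was the most abundant of the 10 genes in siControl, at 47.85, 54.41 and 46.73 FPKM. In siASGR1 it was at 27.78, 29.11 and 27.52 FPKM, below every siControl library. Its log2 fold change was -0.80 (SE 0.06, adjusted p = 4.77e-05), and the siASGR1 mean was 56.7% of siControl. DUSP6 (ENSG00000139318; GRCh38 chromosome 12, 89347232 to 89353271, minus strand) went the other way. It was at 29.75, 29.82 and 31.14 FPKM in siControl and at 33.96, 33.12 and 33.69 FPKM in siASGR1, with all siASGR1 libraries above all siControl libraries. The increase was small, 11.1% in mean FPKM (log2 fold change 0.15, SE 0.04, adjusted p = 0.011). It was 0.30 (adjusted p = 0.000365) with median-of-ratios scaling and 0.22 with upper-quartile scaling, so its direction did not turn under either. The 3 phosphatases therefore changed rank: DUSP5 led in siControl and DUSP6 in siASGR1. Their summed level was 83.9 ± 3.8 FPKM in siControl and 62.8 ± 0.47 FPKM in siASGR1 (SD, n = 3), with no test run on sums.

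Sprouty and SPRED proteins are membrane-associated inhibitors; Sprouty binds the adaptor GRB2 and RAF, and SPRED brings the RAS GTPase-activating protein NF1 to the membrane. SPRY4 (ENSG00000187678; GRCh38 chromosome 5, 142310427 to 142326455, minus strand) was at 6.93, 7.49 and 6.61 FPKM in siControl and at 3.46, 3.61 and 3.08 FPKM in siASGR1. Its siASGR1 mean was 48.3% of siControl, with no overlap (log2 fold change -0.87, SE 0.07, adjusted p = 5.47e-05). SPRY2 (ENSG00000136158; GRCh38 chromosome 13, 80335976 to 80340951, minus strand) was at 11.43, 11.85 and 10.19 FPKM in siControl and at 9.28, 9.56 and 9.13 FPKM in siASGR1. The groups were apart, but the gap between the lowest siControl and the highest siASGR1 library was narrow. Its log2 fold change of -0.23 (SE 0.06, adjusted p = 0.0129) lay near the median of all genes, and the call was lost with median-of-ratios scaling (-0.094, adjusted p = 0.245) and upper-quartile scaling (-0.16, adjusted p = 0.0512). Reads of SPRY4 and of the antisense RNA SPRY4-AS1, which overlaps it, cannot be told apart without a known strand setting; SPRY4-AS1 was at 0.59 to 1.26 FPKM in siControl and 0.48 to 0.80 FPKM in siASGR1.

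SPRED2 (ENSG00000198369; GRCh38 chromosome 2, 65310851 to 65432637, minus strand) was at 14.38, 15.56 and 15.82 FPKM in siControl and at 12.89, 12.75 and 13.84 FPKM in siASGR1. The ranges did not meet, and the log2 fold change was -0.20 (SE 0.05, adjusted p = 0.0151). Under median-of-ratios scaling the value was -0.056 with an adjusted p of 0.38, and under upper-quartile scaling -0.13 with an adjusted p of 0.0829, so neither kept the call. It was also lost when siASGR1 replicate 1 was left out, at -0.19 with an adjusted p of 0.0502. SPRED1 (ENSG00000166068; GRCh38 chromosome 15, 38252326 to 38357249, plus strand) was at 3.29, 3.43 and 3.73 FPKM in siControl and at 3.13, 2.95 and 3.67 FPKM in siASGR1. These ranges overlapped, and the log2 fold change of -0.08 (95% interval -0.27 to 0.11, adjusted p = 0.431) was not called. SPRY4 was thus called under all 3 scalings, and SPRY2 and SPRED2 only with the values as deposited.

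ETV4 and ETV5 belong to the PEA3 group of ETS transcription factors, which ERK activates and which drive growth and branching programmes. ETV5 (ENSG00000244405; GRCh38 chromosome 3, 186046308 to 186110318, minus strand) was at 20.83, 19.12 and 20.67 FPKM in siControl and at 15.68, 16.68 and 16.17 FPKM in siASGR1. It fell to 80.1% of siControl without overlap (log2 fold change -0.30, SE 0.05, adjusted p = 0.00135), and the call held with median-of-ratios scaling (-0.16, adjusted p = 0.0279). ETV4 (ENSG00000175832; GRCh38 chromosome 17, 43527844 to 43579620, minus strand) was at 29.66, 31.08 and 32.06 FPKM in siControl and at 29.99, 32.46 and 29.11 FPKM in siASGR1. The 6 libraries were mixed, and the log2 fold change was -0.02 (95% interval -0.14 to 0.11, adjusted p = 0.767). With median-of-ratios scaling its value was 0.13 (adjusted p = 0.0848), so its sign follows the scaling. The gene DHX8 overlaps ETV4 on the opposite strand and was at 10.95 to 11.43 FPKM in siControl and 13.07 to 13.39 FPKM in siASGR1. With the strand setting unknown, reads of the shared stretch cannot be assigned to either gene. ETV5-AS1, antisense to ETV5, was at 0 to 0.32 FPKM in siControl and 0.37 to 0.77 FPKM in siASGR1.

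PHLDA1 (ENSG00000139289; GRCh38 chromosome 12, 76025447 to 76033932, minus strand), a pleckstrin-homology-like protein induced by growth factors, was the least abundant of the 10 genes in siControl. It was at 2.26, 2.25 and 2.57 FPKM in siControl and at 1.53, 1.46 and 1.28 FPKM in siASGR1, which do not overlap. Its mean fell to 60.3% of siControl (log2 fold change -0.47, SE 0.08, adjusted p = 0.00216), and the call held with median-of-ratios scaling (-0.37, adjusted p = 0.00651). The low level does not mean few reads, since the exons of PHLDA1 are long: its values stand for about 198 to 352 fragments a library, and those of DUSP4 for about 137 to 556. For the other 8 genes the estimates ran from about 387 to 2990 fragments. They use GENCODE exon lengths, which may differ from those of the annotation behind the FPKM.

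**Figure D2:**
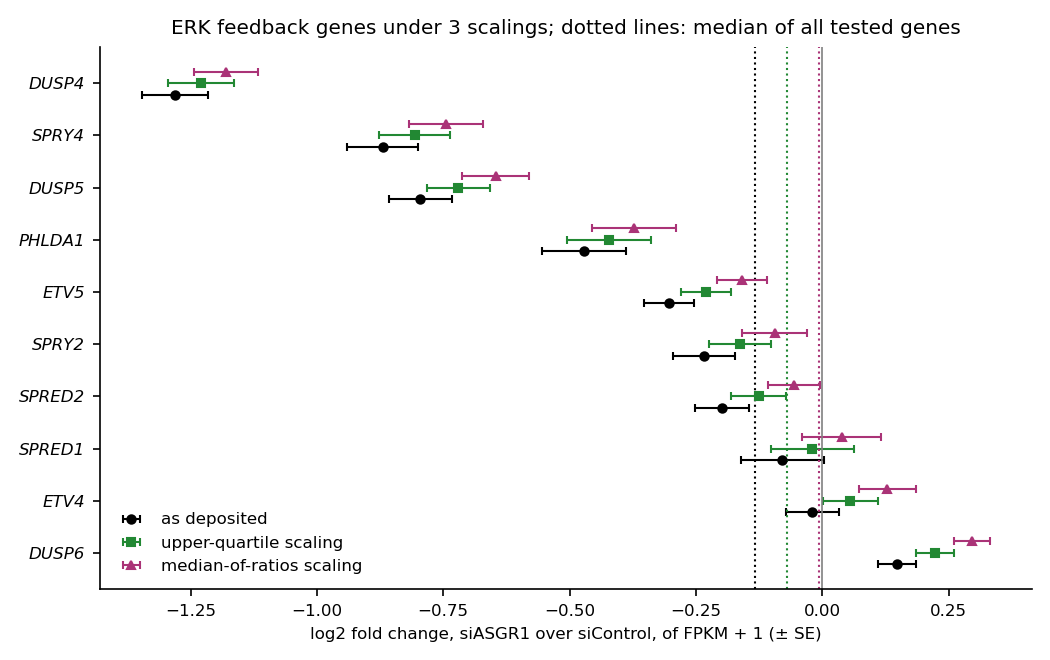
Log2 fold change of FPKM + 1, siASGR1 over siControl (horizontal axis, bars are SE), of the 10 genes with values as deposited (circles), upper-quartile scaling (squares) and median-of-ratios scaling (triangles); dotted lines mark the median of all tested genes under each. DUSP4, SPRY4, DUSP5, PHLDA1 and ETV5 lie left of the dotted lines and DUSP6 right of them under all 3, whereas SPRED1 and ETV4 change sign between scalings.

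The sequences just around the transcription starts were compared in windows of 300 bases reaching from 250 bases before to 50 bases after a start. The windows come from RefSeq's promoter table (GRCh38.p14). Used here were 9 windows of 6 of the 10 genes: DUSP6, SPRY2, SPRY4, SPRED1, SPRED2 and PHLDA1. DUSP4 was left out of this comparison. For DUSP5, ETV4 and ETV5 the promoter table has no window. The windows of DUSP6, the gene that rose, of SPRY4 and PHLDA1, which fell under all scalings, and the first of SPRY2, whose call depended on the scaling, are shown 5′ to 3′ on the gene's strand. Capitals mark matches, on either strand, to CCGGAA, the core bound by ETS factors, or to TGACG, the half-site of CREB and ATF factors.
DUSP6 promoter, chr12:89352452-89352751, minus strand: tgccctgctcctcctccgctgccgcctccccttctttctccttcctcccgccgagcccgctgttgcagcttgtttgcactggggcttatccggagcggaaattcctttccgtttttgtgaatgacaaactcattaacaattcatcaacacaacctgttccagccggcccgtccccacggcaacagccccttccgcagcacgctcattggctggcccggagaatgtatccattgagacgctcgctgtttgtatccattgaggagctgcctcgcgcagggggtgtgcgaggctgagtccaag
SPRY4 promoter, chr5:142324198-142324497, minus strand: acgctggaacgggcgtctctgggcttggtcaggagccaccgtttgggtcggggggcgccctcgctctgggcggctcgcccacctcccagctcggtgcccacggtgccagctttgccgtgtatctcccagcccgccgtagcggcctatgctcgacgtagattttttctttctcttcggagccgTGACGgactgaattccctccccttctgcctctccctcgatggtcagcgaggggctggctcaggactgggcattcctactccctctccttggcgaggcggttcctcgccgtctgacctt
PHLDA1 promoter, chr12:76031727-76032026, minus strand: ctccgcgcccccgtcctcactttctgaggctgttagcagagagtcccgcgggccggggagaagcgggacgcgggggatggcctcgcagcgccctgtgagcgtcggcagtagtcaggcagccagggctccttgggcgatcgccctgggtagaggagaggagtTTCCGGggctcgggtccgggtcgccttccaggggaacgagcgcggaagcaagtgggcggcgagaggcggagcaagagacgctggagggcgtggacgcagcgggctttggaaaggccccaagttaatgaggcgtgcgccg
SPRY2 promoter, chr13:80341077-80341376, minus strand: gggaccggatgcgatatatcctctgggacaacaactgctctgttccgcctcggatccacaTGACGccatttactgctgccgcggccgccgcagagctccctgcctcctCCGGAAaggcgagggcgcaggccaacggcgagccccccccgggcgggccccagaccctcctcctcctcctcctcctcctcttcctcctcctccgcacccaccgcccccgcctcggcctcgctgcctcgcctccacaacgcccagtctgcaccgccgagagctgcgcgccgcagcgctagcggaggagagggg

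The DUSP6 window held neither motif. The SPRY4 window held a TGACG half-site at bases 183 to 187, counted from 1 at the window's 5′ end, and the PHLDA1 window an ETS core on the opposite strand at bases 162 to 167. The first SPRY2 window held both, TGACG at bases 61 to 65 and CCGGAA at bases 109 to 114. Over all 9 windows 2 had the ETS core and 3 had TGACG, against 17.2% and 24.6% of all 35116 windows in the table. The full site TGACGTCA (1.85% of all windows), which contains TGACG, and the CArG box of serum response factor (1.29%) had no match in any of them. Neither had TGAATGAA (1.65%) or TGAATGGA (1.03%), which the repressor CIC binds. Other spellings of a CIC site were not searched for, so their absence from these windows is not shown. The AP-1 site TGANTCA (7.71%) matched in the second SPRED2 window alone. The 9 windows ranged from 39.3% G and C (the second of SPRED2) to 76.3% (SPRED1), against a median of 58.7% over all windows, and the single window of DUSP6 was at 58.3%. A match is a description of the letters only, and no match in a window this short says nothing of sites outside it.

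Ratios between 2 genes of the same library cancel the depth of that library, apart from the 1 FPKM added before the logarithm. Each of 5 ratios was compared between groups by an exact two-sided permutation test, for which 3 against 3 libraries cannot give a p below 0.1. DUSP4 relative to DUSP6 was at a log2 ratio of -2.63, -2.60 and -2.67 in siControl and of -4.07, -4.08 and -4.04 in siASGR1, a difference of -1.43 (SE 0.02). In plain FPKM, DUSP4 had 0.13 to 0.137 of the level of DUSP6 in siControl and 0.0308 to 0.033 of it in siASGR1. DUSP5 relative to DUSP6 differed by -0.94 (SE 0.09) and turned from above DUSP6 (1.5 to 1.83 times its FPKM) to below it (0.817 to 0.879 times). Both phosphatases were lower relative to DUSP6 in each siASGR1 library than in any siControl library.

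SPRY2 relative to SPRY4 was higher by 0.64 (SE 0.05), from 1.54 to 1.65 times the FPKM of SPRY4 in siControl to 2.65 to 2.96 times in siASGR1. ETV4 relative to ETV5 was higher by 0.28 (SE 0.06) and SPRED1 relative to SPRED2 by 0.12 (SE 0.04). None of the 5 log2 ratios overlapped between groups, though the plain FPKM ratios of SPRED1 to SPRED2 did (0.22 to 0.236 against 0.231 to 0.265). Each reached the smallest exact permutation p of 0.1, also after adjustment over the 5, so none passes a threshold of 0.05.

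**Figure D3:**
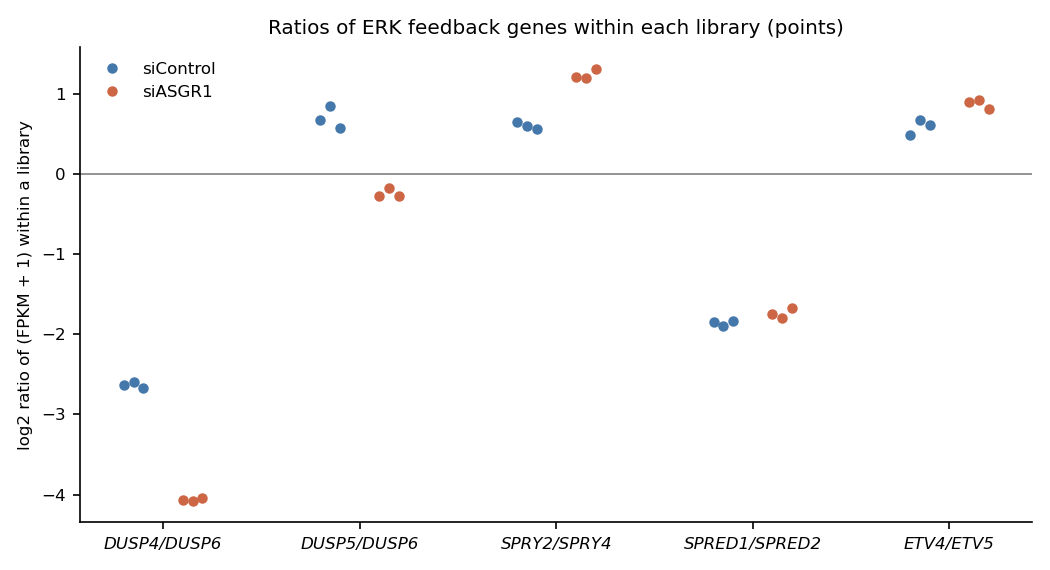
Log2 ratio of (FPKM + 1) between gene pairs within each library (points), siControl and siASGR1 side by side, with the gene pair on the horizontal axis. DUSP4 and DUSP5 relative to DUSP6 are lower in all 3 siASGR1 libraries, and SPRY2 relative to SPRY4 is higher.

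The order of the levels was otherwise stable. In siControl it ran, from the highest mean, DUSP5, ETV4, DUSP6, ETV5, SPRED2, SPRY2, SPRY4, DUSP4, SPRED1 and PHLDA1, and of these neighbours only ETV4 and DUSP6 overlapped in range. In siASGR1 it ran DUSP6, ETV4, DUSP5, ETV5, SPRED2, SPRY2, SPRY4, SPRED1, PHLDA1 and DUSP4, where ETV4 overlapped DUSP5 and SPRY4 overlapped SPRED1. The means spanned 2.36 to 49.7 FPKM in siControl and 1.07 to 33.6 FPKM in siASGR1. DUSP5 and DUSP4 moved down this order by 2 places each.

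The remaining MAP kinase phosphatases were also mostly lower. Of 7, 6 were tested, of which 5 fell and 1 rose, against 40.4% and 20.9% of all tested genes, with a median log2 fold change of -0.84 against -0.13. DUSP1, an inducible phosphatase of ERK, p38 and JNK, was at 23.70, 24.82 and 23.75 FPKM in siControl and at 4.50, 5.47 and 4.50 FPKM in siASGR1 (20.0% of siControl, log2 fold change -2.11). DUSP8, a phosphatase of the stress kinases JNK and p38, fell from 6.55 ± 0.43 to 1.32 ± 0.065 FPKM, and DUSP10, of the same kind, from 5.68 ± 0.12 to 1.957 ± 0.101 FPKM. DUSP9, a cytoplasmic ERK phosphatase of the same subgroup as DUSP6, rose from 67.9 ± 4 to 105.4 ± 8.54 FPKM (log2 fold change 0.63, adjusted p = 0.000221). DUSP7, which like DUSP6 and DUSP9 is a cytoplasmic ERK phosphatase, fell from 6.11 ± 0.27 to 4.34 ± 0.28 FPKM, so that subgroup did not move one way; it is named after its values were seen, as is DUSP16, which also fell. DUSP2 was at most 0.06 FPKM and was not tested.

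Among 13 other inhibitors of the pathway, 11 were tested; 5 fell, 1 rose and 5 were not called. The share that fell, 45.5%, was near the 40.4% of all tested genes, and the median of -0.14 near their -0.13. The Sprouty gene SPRY1 fell from 5.95 ± 0.29 to 3.65 ± 0.076 FPKM, an amount between those of SPRY4 and SPRY2. SPRED3 fell from 1.53 ± 0.27 to 0.50 ± 0.056 FPKM and IL17RD, an inhibitor of FGF signalling, from 1.08 ± 0.064 to 0.31 ± 0.044 FPKM. These 2 genes reached the filter through siControl alone, and a gene that passes in this way has to be lower in siASGR1. Without any 1 of the siControl libraries the list's count of falls was 3. ERRFI1, which inhibits EGFR, fell to 81.9% of siControl. The other called genes, named after their values were seen, were the ubiquitin ligase gene CBLB, which fell to 70.9% of siControl, and LZTR1, whose product promotes the breakdown of RAS proteins and which rose to 119.3%. With median-of-ratios scaling 3 rose and 5 fell, against 29.9% and 28.9% of all tested genes.

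The receptors upstream changed in both directions, and all 10 passed the test, against 61.3% of all tested genes. Of these receptors 6 rose and 4 fell (median 0.42), against 20.9% and 40.4% of all tested genes, so the falls were at the background. With median-of-ratios scaling 6 rose and 3 fell, against 29.9% and 28.9% of all tested genes. FGFR4, the main FGF receptor of hepatocytes, rose from 46.3 ± 3.14 to 92.95 ± 3.10 FPKM and FGFR3 from 28.0 ± 3.16 to 57.0 ± 1.47 FPKM. KLB, the co-receptor that FGF19 needs to act through FGFR4, fell from 33.6 ± 0.35 to 22.04 ± 0.71 FPKM. ERBB3, a partner of ERBB2, rose from 20.5 ± 0.14 to 31.9 ± 1.82 FPKM. The 4 genes named here had adjusted p of at most 4.99e-05.

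Genes of the cascade itself changed in both directions. Of 22 tested genes of 23, 3 rose, 9 fell and 10 were not called (median -0.11). The 40.9% that fell and the 13.6% that rose compare with 40.4% and 20.9% of all tested genes, so the falls were at the background. With median-of-ratios scaling 7 rose and 5 fell, against 29.9% and 28.9% of all genes. MAPK3, which encodes ERK1, was at 23.35, 22.63 and 20.70 FPKM in siControl and at 21.63, 23.14 and 23.14 FPKM in siASGR1 (log2 fold change 0.03, adjusted p = 0.704). The MEK genes MAP2K1 and MAP2K2 were at 98.3% and 96.3% of siControl and were not called. Higher up, the RAS exchange factor gene SOS1 fell to 50.3% of siControl, and the adaptor gene SHC1 rose to 132.9%. RPS6KA1, which encodes an RSK kinase downstream of ERK, fell to 68.9%.

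Of 8 other nuclear factors, 7 were tested, of which 5 fell and 1 rose (median -0.29), against 40.4% and 20.9% of all tested genes. With median-of-ratios scaling 3 fell and 1 rose, against 28.9% and 29.9%. ETV1, the remaining PEA3 factor, fell from 6.01 ± 0.24 to 4.10 ± 0.29 FPKM, further than ETV5 on the log2 scale (-0.46). CIC, a repressor of ETV4, ETV5 and DUSP6 that ERK inactivates, fell from 14.5 ± 1.29 to 9.41 ± 0.37 FPKM, and the ERK-regulated repressor gene ERF fell to 79.0% of siControl. ELK4, a serum response factor partner, fell to 79.1%. Of 13 other ERK-induced targets only 7 reached the filter. Of these 4 fell, 0 rose and 3 were not called (median -0.56), while 40.4% of all tested genes fell and 20.9% rose. With median-of-ratios scaling 4 fell and 0 rose, against 28.9% and 29.9%. EPHA2, a receptor tyrosine kinase, fell from 59.3 ± 2.60 to 30.3 ± 1.01 FPKM, CCND1, which encodes cyclin D1, from 70.4 ± 1.89 to 47.6 ± 1.102 FPKM, and IER2 from 22.5 ± 0.53 to 14.3 ± 0.88 FPKM. PLAUR, the urokinase receptor, fell to 25.8% of siControl from 1.67 FPKM. It reached the filter through siControl alone, and a gene that passes in this way has to be lower in siASGR1. The count of falls among these targets was 3 without any 1 of the siControl libraries. The immediate early gene EGR1 was low and not called, at 1.57 ± 0.26 FPKM in siControl and 1.6 ± 0.5 FPKM in siASGR1 (adjusted p = 0.983). FOSL1 was at 0.03, 0.03 and 0.06 FPKM in siControl, listed at 0 in siASGR1, and not tested.

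**Figure D4:**
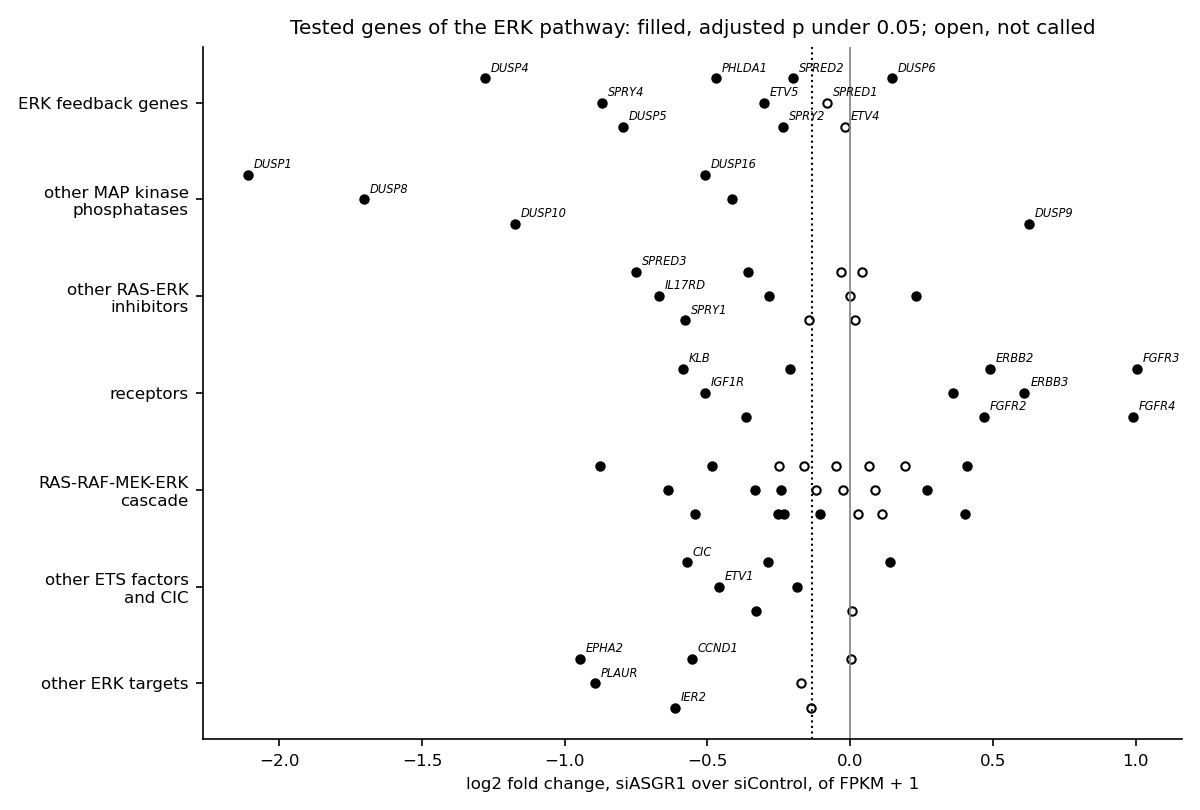
Log2 fold change of FPKM + 1, siASGR1 over siControl (horizontal axis), of every tested gene of the ERK feedback list and of the 6 pathway lists (vertical axis, points staggered for legibility); each point is a gene, filled where the adjusted p is under 0.05, and the dotted line is the median of all tested genes. DUSP1, DUSP8, DUSP4 and DUSP10 lie farthest to the left, and FGFR3 and FGFR4 farthest to the right.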

How the data were processed

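Total RNA of 6 Huh7 libraries, 3 per group, was prepared for sequencing with Illumina's TruSeq kit, as the labels state. The submitters' processing notes name HISAT2 2.0.1, the build hg19, cutadapt 1.9.1 and bcl2fastq 2.17.1.14. For the counting program, annotation and strand setting, nothing is given in the sources used here. FPKM rounded to 2 decimals stand in the 7 deposited tables, per the file headers. The table of all 6 libraries was used throughout; its name speaks of raw counts, but its columns are FPKM.

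From these values log2(FPKM + 1) was computed and genes that reached 1 FPKM in 3 or more libraries were tested with limma 3.58.1 in R 4.3.3 (group as the only term, prior variance that follows the level, two-sided, Benjamini-Hochberg, called at an adjusted p under 0.05). Depth was found as the number of fragments that makes low FPKM whole reads, with GENCODE 29 exon lengths: 97.5% to 98.0% of the values examined came out within 0.1 of a whole read, against 10.8% to 13.1% at the median of other depths. Python 3.11.15, scipy 1.17.1 and matplotlib 3.10.9 were used for the rest.

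The 10 genes, the pathway lists and the rules were chosen with earlier results of these data known. Named from each list were up to 4 called genes with the smallest p-values and a few genes whatever their values; results for some of these are not reported here. Positions are those of GENCODE 29 on GRCh38, since the tables carry none. Alternatives were other scalings, added constants of 0.1 and 0.5, no filter, a filter of 5 FPKM, a constant prior, a replicate block and leaving out each library.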

Additional observations from a re-analysis of the deposited data

How the results depend on the processing

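DUSP4, DUSP5, DUSP6, SPRY4, ETV5 and PHLDA1 kept their direction and their call under all 14 alternatives of the fit that could give a value; DUSP4, SPRED1 and PHLDA1 have none at the stricter filter of 5 FPKM, which they do not reach. With median-of-ratios scaling the log2 fold change was -0.094 for SPRY2 and -0.056 for SPRED2, no longer called, and 0.038 for SPRED1 and 0.13 for ETV4, with the sign turned and no call. With upper-quartile scaling it was -0.16 for SPRY2 and -0.13 for SPRED2, not called, and 0.055 for ETV4. Leaving out 1 library gave -0.24 to -0.17 for SPRED2, whose call was lost without siASGR1 replicate 1, and -0.063 to 0.013 for ETV4, above 0 without siASGR1 replicate 3 or siControl replicate 3. The count of genes that fell among the 10 was 6 to 7 when 1 library was left out.

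Median-of-ratios scaling changed the counts of other inhibitors (3 higher), of the cascade (7 higher, 5 lower) and of other nuclear factors (3 lower), and upper-quartile scaling gave 5 higher in the cascade. With a filter of 5 FPKM, and so fewer genes tested, 2 other inhibitors and 3382 of all genes fell. With 1 library left out, 3 to 5 other inhibitors fell the lowest without any 1 of the siControl libraries, and 0 to 1 other nuclear factors rose, with 0 without siASGR1 replicate 1 or 3 or siControl replicate 1 or 2. Same-numbered libraries did not deviate together from their group means (Pearson r across tested genes -0.019, 0.002 and 0.012). These values cannot tell whether same-numbered libraries were prepared together. In the fit with the replicate block, 7 of the 10 genes fell and 1 rose, as without it, and 0 other nuclear factors rose, where ELK1 had been called. The difference in the DUSP4/DUSP6 ratio was -1.97 and -1.68 with 0.1 and 0.5 added, and that in SPRY2/SPRY4 0.78 and 0.71, where the use of 0.5 for ratios was chosen after seeing the data; adding less to a low level widens a log ratio by construction. Other causes were not tested.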
